A study of Homo sapiens with 10 samples.

Results

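The comparison described here is that of ribavirin-treated with untreated EOS cells in 2 human prostate cancer cell lines, and it uses 4 of the 10 arrays of the series. The 4 arrays were chosen by their labels: the ribavirin array of DU145 and that of LNCaP, each set against the array of the EOS number 2 cells that were treated. EOS is a vector in which enhancers bound by OCT4 and SOX2 drive GFP and a puromycin resistance gene. Cells carrying it were kept in puromycin for a few weeks, so that both arrays of a pair came from drug-selected, vector-carrying cells. The remaining 6 arrays, used only as context, were 1 array per line of untreated EOS number 1 cells and 2 per line of cells with a control vector, in which the ubiquitous PGK promoter drives the same genes. The labels give neither the dose of ribavirin nor the time of treatment. They also do not say that arrays of a group came from separate cultures. Each p-value over both lines reflects how far the 2 lines differ in their response, over genes of like intensity more than for the gene itself. That of the test between the lines reflects a spread between arrays that may be technical only.

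Ribavirin is a guanosine analogue and antiviral drug. Inside cells it is phosphorylated, and its monophosphate inhibits IMP dehydrogenase, the enzyme that commits IMP to guanine nucleotide synthesis. It has also been reported to act on eIF4E, the protein that binds the mRNA cap and favours translation and nuclear export of a group of growth-promoting mRNAs, and on the histone methyltransferase EZH2. DU145 is an androgen-independent line from a brain metastasis. LNCaP responds to androgens and was derived from a metastasis in a lymph node.

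The labels of the lines held in all 4 arrays. KLK3, which encodes prostate-specific antigen, was at a scaled intensity of 43.1 and 8.58 in the DU145 arrays without and with ribavirin and at 28500.4 and 28616 in those of LNCaP. CD44 was at 2421 and 2267 in DU145 and at 4.67 and 1.22 in LNCaP. Scaled intensity means that each array was multiplied so that its mean, after trimming 2% of the values at each end, was 500. The 3' to 5' ratio of ACTB, a sign of RNA length, was 3.20 to 3.90 in the 4 arrays, and the ribavirin array had the lower ratio in both lines. It was 3.50 and 3.99 in the PGK 2 arrays but 1.24 to 1.51 in the 4 arrays numbered 1. Readings over all 5 arrays of a line thus mix arrays that differ in this ratio. For GAPDH the gap was narrower, with ratios from 0.96 to 1.06 for number 1 and from 1.09 to 1.22 for number 2. What made the ratios differ was not tested. An array that is the lowest or highest of 5 is also so among the 3 numbered 2. Of the markers of other cell types, most had no kept probe set. The summed level of 2 leukocyte markers was 79.4 to 244 in the 4 arrays and that of 2 endothelial markers 116 to 297. The sum of 4 fibroblast markers was 577 to 3135, highest in DU145, where POSTN was at 1730.1 without and 2020 with ribavirin. The part of these values in the results was not tested.

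Few of the genes that differed most with ribavirin were the same in both lines. A difference is given as log2(scaled intensity + 16) with ribavirin minus the same without, which understates the differences of dim genes. Of 14313 genes, 760 differed by at least 1 on this scale in DU145 (5.31%) and 908 in LNCaP (6.34%). In DU145, 442 of these were higher with ribavirin (3.09%) and 318 lower (2.22%), and in LNCaP 348 were higher (2.43%) and 560 lower (3.91%). Only 35 genes were past this fold upward in both lines (0.245%) and 40 downward in both (0.279%). Together they were 9.87% of the genes past the fold in DU145 and 8.26% of those in LNCaP, while 84 were past it in opposite directions (0.587%). A further 420 genes passed it in DU145 and stayed under 0.5 in size in LNCaP (2.93%), and 527 did so in LNCaP alone (3.68%). Each line has 1 array against 1, so these counts have no replicate check. With the array median in place of the trimmed mean as the scale, the median difference of all genes in LNCaP moved from -0.01 to 0.18 and the share of higher genes among those past the fold from 38.3% to 50.9%. With quantile normalization that share was 50.4%.

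Most of these genes were dim. Among the 8213 genes with a scaled intensity of at least 250 in the higher array of each pair, 10 passed the fold in DU145 (0.122%) and 13 in LNCaP (0.158%), and none did so in both lines. Untreated arrays, which differ in their vector, were no closer to each other: 847 genes were past the same fold between EOS 2 and PGK 2 in DU145 (5.92%) and 1703 in LNCaP (11.9%). Over all genes the differences of the lines had a Pearson correlation of -0.01, and 51.2% of genes had the same sign. Over the 8213 brighter genes the correlation was 0.06, with 53.03% of the same sign, and over the 4509 genes of at least 1000 it was 0.08, with 54.2%. Genes are not independent replicates, and the lines share the array design and the processing, so these correlations are descriptions. Within a pair, probe sets of the same gene matched only in part, which is not a measure of repeatability between arrays. The differences of the probe set used and of another of its gene correlated at 0.04 in DU145 and 0.05 in LNCaP over all genes. The correlations were 0.37 and 0.33 where the other probe set reached 1000 in the higher array of each pair.

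**Figure D1:**
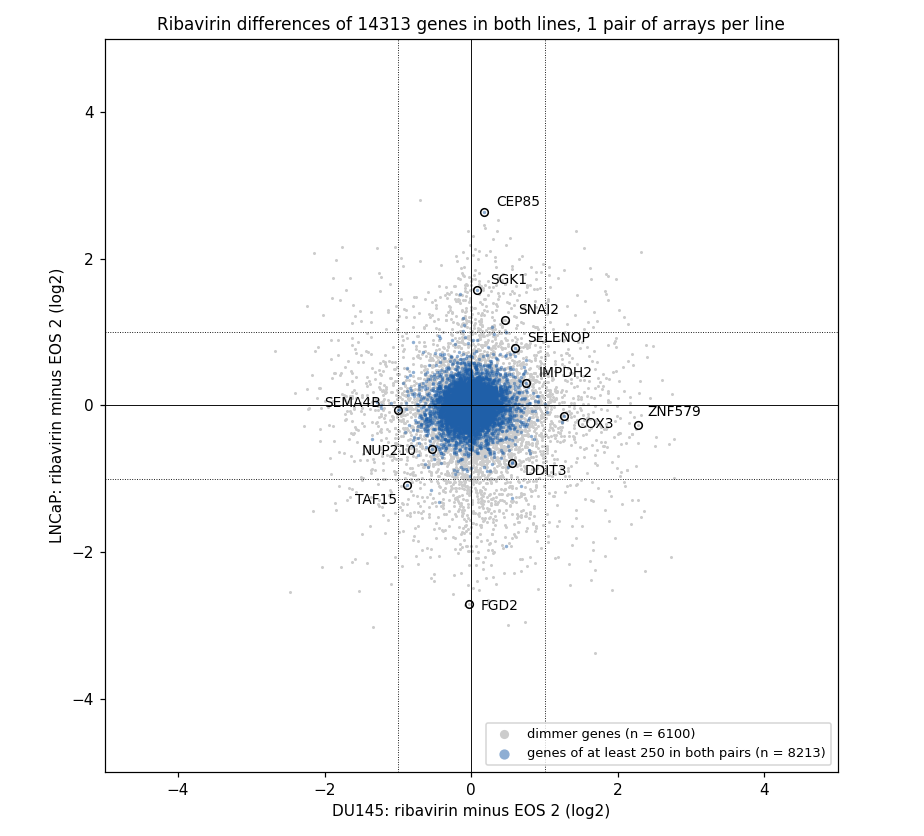
Each point is 1 of 14313 genes, placed by its ribavirin minus EOS 2 difference on the log2(scaled intensity + 16) scale in DU145 (horizontal) and LNCaP (vertical); blue marks the 8213 genes of at least 250 in the higher array of each pair, and dotted lines mark a difference of 1. The blue cloud is round and centred on 0, none of its points is past a dotted line in both lines, and the differences past 1 are mostly grey, dim genes.

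TAF15 was the one gene that passed the test over both lines. It encodes an RNA-binding protein that is also a factor associated with the general transcription machinery. TAF15 was at 3011 in DU145 EOS 2 and at 1626 with ribavirin, and at 2586 in LNCaP EOS 2 and 1205 with ribavirin. The other untreated arrays were at 3087, 3715 and 2925 in DU145 and at 3889, 3892 and 1526 in LNCaP, so that the ribavirin array was the lowest of 5 in both lines. The differences were -0.88 and -1.09, and over both lines TAF15 fell, with a mean of -0.99 ± 0.11 (SE; limma on the 4 arrays with line as a block, adjusted p = 0.0261). In the fit that call was 1 of 14313 genes (0.00699%), and 815 genes had an unadjusted p under 0.05. The call was lost in 7 alternatives. They included quantile normalization (limma adjusted p = 0.22), the mean of the gene's probe sets (-0.53, limma adjusted p = 0.92) and both fits on all 10 arrays. The probe set used was the brightest of TAF15. Of its 2 other kept probe sets, 1 gave -0.55 in DU145 and -0.78 in LNCaP, and 1 gave 0.02 and 0.12. In bulk RNA, fewer cells that express a gene and less of its RNA per cell cannot be told apart.

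The 12 lowest of the genes chosen for the same direction in both lines were ranked by the smaller of their 2 differences, and limma called none of them but TAF15. The nuclear pore protein gene NUP210 was at 1590.2 in DU145 EOS 2 and 1095 with ribavirin, and at 1599 and 1055 in LNCaP. Its mean difference was -0.56 ± 0.12 (SE, limma adjusted p = 0.678), and its 4 other probe sets were also lower in both lines, by -0.15 to -0.56 in DU145 and -0.12 to -0.29 in LNCaP. In LNCaP, however, the PGK 1 array without ribavirin was lower still, at 960.2, while PGK 2 was at 1275. POLR2A, the largest subunit of RNA polymerase II, was at 829 and 546 in DU145 and at 430.5 and 234 in LNCaP, and its dim other probe set was higher in DU145 (0.76). Of the 12 subunits of that enzyme, all measured, 8 were below 0 in DU145 and 4 in LNCaP, and POLR2A had the lowest value in both.

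SESN2, a stress-induced inhibitor of mTORC1 signalling, was at 383 and 224 in DU145 and at 520.4 and 321 in LNCaP. PPRC1, a coactivator of genes for mitochondrial function, was at 633 and 440 in DU145 and 409 and 239 in LNCaP. ATF5, a bZIP transcription factor of the stress response, was at 283 and 186 in DU145 and at 348 and 233 in LNCaP, but its 2 other kept probe sets were higher in DU145, by 0.77 and 1.03. ILK, which links integrins to the cytoskeleton, was at 694 and 448 in DU145 and at 681 and 454 in LNCaP. The remaining genes of this kind were ZNF48, TPCN1, MELTF-AS1, ZBED3 and ZFYVE9, with differences from -0.51 to -1.15.

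Higher values in both lines were led by genes of different functions, and none passed the test. SELENOP encodes a secreted selenium carrier. It was at 204 in DU145 EOS 2 and 317 with ribavirin, and at 16397 and 28179 in LNCaP, a mean difference of 0.69 ± 0.10 (SE, limma adjusted p = 0.196). In LNCaP, 28179 was the highest of 5 arrays, which ran from 3262 in PGK 2 upward, and the 2 other probe sets were higher by 1.10 and 0.77. In DU145 those 2 were dim, at 40.8 and 38.4 in EOS 2 and at 3.69 and 3.21 with ribavirin. CCN1, a matricellular protein and a target of YAP, was at 13944 and 19313 in DU145 and at 307 and 505 in LNCaP (0.58 ± 0.10, SE, limma adjusted p = 0.349). Its other probe set gave 0.41 and 1.00. TSC22D1, a TGF-beta-responsive transcriptional regulator, had rank 3 by p-value, with 3850 and 4890.2 in DU145 and 11877 and 17422 in LNCaP.

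KRT8, a luminal keratin, was at 325 and 502 in DU145 and at 2256 and 3607 in LNCaP. Untreated arrays of both lines reached higher, 3660.4 in DU145 PGK 1 and 5902 in LNCaP EOS 1, so the values overlap across array numbers. Among arrays numbered 2, PGK 2 was above the ribavirin array in DU145, at 1107, and below it in LNCaP, at 1887. GRK2, a kinase that desensitises G protein-coupled receptors, was at 218 and 323 in DU145 and at 248 and 359 in LNCaP. Its 2 other kept probe sets gave -0.43 and -2.51 in LNCaP, and the mean of its probe sets over both lines was -0.15. RGS2, which limits signalling by such receptors, was at 288 and 484 in DU145 and at 396 and 575 in LNCaP. The others were PGAP6, ST3GAL2, METTL6, ACTBP9, FBF1, CDIN1 and ND6, with differences from 0.47 to 0.99. Of the 24 genes named for both lines, 17 had another kept probe set, and for 5 of the 17 all of them had the same sign as the one used in both lines. Only 2 had a further probe set that was bright in both pairs, NUP210 and PGAP6, and all 3 such probe sets had the same sign in both lines. The ribavirin array lay outside all 4 untreated arrays of the line, the same way in both lines, for 5 of the 24: TAF15, ATF5, PPRC1 and ZFYVE9 at the low end and GRK2 at the high end. Over the 8213 brighter genes that happened for 793 (9.66%). The 24 genes were picked for their difference from EOS 2, itself an untreated array. Their share was thus partly set by the choice and cannot be compared with that of all brighter genes.

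**Figure D2:**
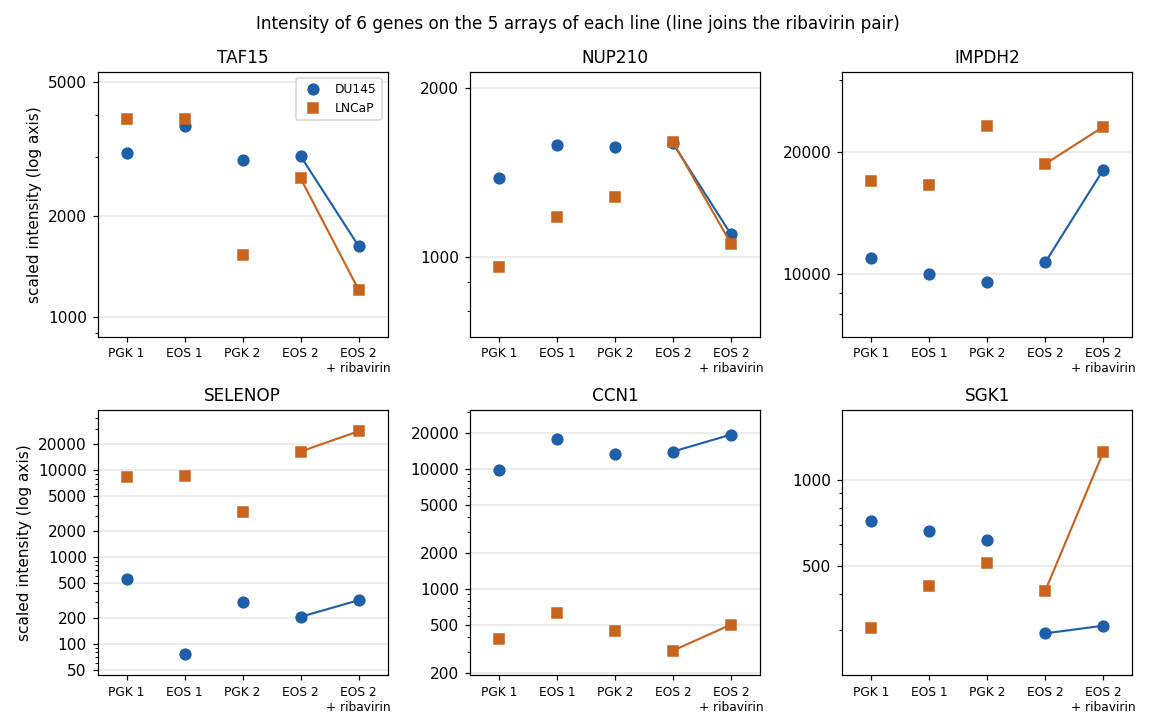
Scaled intensity, on a log axis, of 6 genes on the 5 arrays of DU145 (blue circles) and LNCaP (orange squares), with a line joining the EOS 2 array to the ribavirin array. TAF15 with ribavirin, at 1626 and 1205, is below all untreated arrays of its line, whereas NUP210 in LNCaP and CCN1 in LNCaP with ribavirin lie among them; IMPDH2 with ribavirin, at 18060.0 in DU145 and 23009 in LNCaP, is above all untreated arrays in DU145 but not in LNCaP.

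IMPDH2, the main form of the enzyme that ribavirin inhibits, had a higher value with the drug in both lines but was not called. It was at 10712 in DU145 EOS 2 and 18060.0 with ribavirin, while the other DU145 arrays were between 9558 and 10999. In LNCaP it was at 18654 and 23009, and the untreated PGK 2 array was at 23073. The differences were 0.75 and 0.30, with a mean of 0.53 ± 0.09 (SE, limma unadjusted p = 0.000119, adjusted p = 0.349), which had rank 4 by p-value among 14313 genes. It rests on 1 probe set. The other form, IMPDH1, was at 643 and 614 in DU145 and at 851 and 863 in LNCaP.

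The other genes of purine synthesis showed no common direction. Of 17 genes measured, IMPDH2 included, 8 were above 0 in DU145 and 13 in LNCaP, with medians of -0.00 and 0.05 against 0.02 and -0.01 over all genes, and limma called none. GMPS, which makes GMP from the product of IMP dehydrogenase, differed by 0.04 and 0.13. HPRT1, which salvages guanine and hypoxanthine, differed by -0.02 and 0.05. ADSS1, on the branch from IMP to AMP, was at 932 and 1313 in DU145 and at 260 and 339 in LNCaP (limma adjusted p = 0.865). Of the genes for the uptake and phosphorylation of ribavirin, 7 of 10 were above 0 in each line, 4 with the same sign in both, but with the mean of a gene's probe sets 3 of 10 were above 0 in LNCaP (median -0.12). The transporter gene SLC29A1 was at 395 and 470 in DU145 and at 120.4 and 131 in LNCaP, and the kinase gene ADK at 7888 and 8079 in DU145 and at 5770.2 and 6542 in LNCaP.

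The mRNAs of the eIF4E pathway had medians near 0 in both lines, with members that went both ways. The 13 measured genes of the cap-binding complex had medians of -0.03 in DU145 and 0.03 in LNCaP, and limma called none. EIF4E itself was at 2718 and 3269 in DU145 and at 4973 and 4980.3 in LNCaP. EIF4EBP1, an inhibitor of eIF4E, was at 1312 and 1265 in DU145 and at 5029 and 4187 in LNCaP, in each line the lowest of 5 arrays with ribavirin. The 15 mRNAs known as sensitive to eIF4E had medians of -0.01 and 0.01. They ranged from -0.46 to 0.32 in DU145 and from -0.87 to 0.41 in LNCaP. FGF2 was the lowest in both, but in LNCaP it was dim, at 19.3 and 3.30. Of these mRNAs, CCND1, which encodes cyclin D1, was at 3632 and 3605 in DU145 and at 1358 and 1423 in LNCaP. MYC was at 6934 and 6877 in DU145 and at 11443 and 9694 in LNCaP. ODC1, of polyamine synthesis, differed by -0.02 and 0.05. PIM1, a survival kinase, was at 753 and 589 in DU145 and at 758 and 610 in LNCaP, and VEGFA differed by -0.43 in DU145 and 0.41 in LNCaP. An array measures mRNA levels and not translation.

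EZH2, the catalytic subunit of polycomb complex 2, was at 1769 and 1470.4 in DU145 and at 1858 and 1574 in LNCaP, a mean of -0.25 ± 0.11 (SE, limma adjusted p = 0.867). Of 14 polycomb and DNA methylation enzymes, 11 were below 0 in DU145 and 12 in LNCaP, 9 with the same sign in both, and the medians were -0.07 and -0.12. The demethylase gene TET2 was at 512 and 411 in DU145 and at 517 and 396 in LNCaP. None was called. Genes of DNA replication were similar: 13 of 19 were below 0 in DU145 and 15 in LNCaP, 13 with the same sign, with medians of -0.04 and -0.09. With the array median as the scale, the LNCaP medians turned to 0.08 for the polycomb list and 0.11 for the replication list, both below the 0.18 of all genes. The replicative helicase gene MCM7 was at 1762 and 1293 in DU145 and at 5391 and 4608 in LNCaP, and its partner MCM5 at 2668 and 1717 in DU145 and 1651 and 1501 in LNCaP. The other kept probe set of MCM5 gave -0.10 in DU145 and -0.03 in LNCaP. For comparison, 6763 of all 14313 genes were below 0 in DU145 and 7547 in LNCaP.

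ATF4 and the genes it drives under amino acid shortage had lower values with ribavirin in LNCaP. Of the 20 genes measured, 18 were below 0 in LNCaP with a median of -0.21, and 10 were below 0 in DU145 with a median of -0.01. Limma called none over both lines, and 8 had an unadjusted p under 0.05, all lower, against 388 lower of all 14313 (2.71%). The list was chosen with the values in view, so this count is not a test of the list against all genes. Between untreated LNCaP arrays the median of the list was -0.29 for EOS 1 minus PGK 1 and -0.06 for EOS 2 minus PGK 2, which shares the EOS 2 array. ATF4 itself was at 27582 and 20377 in LNCaP and at 18274 and 16592 in DU145 (-0.44 and -0.14). TRIB3, a pseudokinase that feeds back on ATF4, was at 4127 and 2475 in LNCaP and at 1476 and 1337 in DU145. CHAC1, which degrades glutathione, was at 460 and 275 in LNCaP and at 187 and 162 in DU145. The cystine transporter gene SLC7A11 was at 4897 and 3370.4 in LNCaP and 9034 and 7486 in DU145, a mean of -0.40 ± 0.09 (SE, limma adjusted p = 0.678). SESN2, given above, belongs to the same group. With the array median as the scale, the LNCaP median of the list was -0.01, which was -0.18 relative to all genes, against -0.19 under the main scale.

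DDIT3 and ASNS of that group went opposite ways in the lines. DDIT3, which encodes the pro-apoptotic factor CHOP, was at 418 and 624 in DU145 and at 1754 and 1008 in LNCaP. ASNS, asparagine synthetase, was at 5631 and 7428 in DU145 and at 13818 and 11695 in LNCaP. The amino acid response element bound by ATF4 with C/EBP partners, TGATGNAA, was searched on both strands of the promoters of this list, from 250 bases before to 50 after the start of the gene. It was present in 4 of 16 promoters (ATF3, CHAC1, ASNS and SLC3A2), against 3.67% of 27305 promoters. The list was made of genes driven by ATF4, so a share above that of all promoters follows from its making and tells nothing about ribavirin. The list and the motif were chosen after the values had been seen. The promoters of CHAC1, lower in both lines, and ASNS, opposite in the lines, are shown to set their matches (capitals) side by side. They are from RefSeq, GRCh38.p14: CHAC1 at chr15:40953221-40953520 on the + strand and ASNS at chr7:97872359-97872658 on the - strand. The match of CHAC1 lies on the reverse strand of the gene.
CHAC1: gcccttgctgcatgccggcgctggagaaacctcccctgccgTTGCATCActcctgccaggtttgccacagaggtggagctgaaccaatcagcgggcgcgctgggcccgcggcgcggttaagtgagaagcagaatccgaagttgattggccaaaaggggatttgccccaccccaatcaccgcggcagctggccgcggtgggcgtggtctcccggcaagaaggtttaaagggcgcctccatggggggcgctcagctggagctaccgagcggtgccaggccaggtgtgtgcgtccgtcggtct
ASNS: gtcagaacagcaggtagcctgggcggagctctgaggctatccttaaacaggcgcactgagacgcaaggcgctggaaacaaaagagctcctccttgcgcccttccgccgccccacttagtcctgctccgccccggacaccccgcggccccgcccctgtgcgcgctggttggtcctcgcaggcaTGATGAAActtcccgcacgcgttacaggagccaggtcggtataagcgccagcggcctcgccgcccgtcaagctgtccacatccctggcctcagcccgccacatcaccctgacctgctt
The 2 promoters thus both hold a match, while the differences of the genes were -0.19 and 0.40 in DU145 and -0.71 and -0.24 in LNCaP. A match is a description of these letters only.

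Genes of hypoxia and glycolysis, many of them targets of the transcription factor HIF1, had opposite signs in the lines. In DU145 16 of 18 were below 0, with a median of -0.11, and in LNCaP 16 of 18 were above 0, with a median of 0.14. Only 2 of 18 had the same sign in both, ADM (-0.10 in DU145 and -1.43 in LNCaP, where it was dim) and ALDOC (0.24 and 0.14). VEGFA, the angiogenic growth factor, was at 3772 and 2801 in DU145 and at 9104 and 12080.0 in LNCaP. NDRG1, a stress-responsive gene, was at 9901 and 7383 in DU145 and at 12527 and 18928 in LNCaP. EGLN3, a prolyl hydroxylase that marks HIF for degradation, was at 435 and 385 in DU145 and at 493 and 827 in LNCaP, but its other kept probe set gave 0.38 and 0.08. PFKFB4, a regulator of glycolytic flux, was at 840 and 484 in DU145 and at 1372 and 1549 in LNCaP. Most glycolytic enzymes differed less, with LDHA at -0.15 and 0.03 and PGK1 at -0.21 and 0.00.

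Untreated arrays also differed in these genes. For EOS 1 minus PGK 1 the median of the list was -0.11 in DU145 and 0.59 in LNCaP. For EOS 2 minus PGK 2, which shares the EOS 2 array with the ribavirin pair, it was 0.38 and 0.24. The core of the hypoxia response element, ACGTG, was present on either strand in 8 of 16 promoters of the list against 21.6% of all 27305. Many genes of the list are HIF1 targets, so a higher share follows from its making and tells nothing about ribavirin. Again, list and motif were chosen after the values had been seen. The promoter of ANKRD37, at 453 and 423 in DU145 and at 4902 and 6531 in LNCaP, held 3 matches, some of which overlap as CACGTG reads alike on both strands. It is shown as an example (RefSeq, GRCh38.p14, chr4:185396591-185396890, + strand, matches in capitals).
ANKRD37: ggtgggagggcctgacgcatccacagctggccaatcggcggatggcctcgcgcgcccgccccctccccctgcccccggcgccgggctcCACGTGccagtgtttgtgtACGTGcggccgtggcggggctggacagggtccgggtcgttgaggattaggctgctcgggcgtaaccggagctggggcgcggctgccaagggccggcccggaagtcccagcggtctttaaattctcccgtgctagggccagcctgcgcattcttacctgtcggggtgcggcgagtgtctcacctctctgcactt

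Histone genes also differed in sign, with 7 of 9 below 0 in DU145 (median -0.06) and 8 of 9 above 0 in LNCaP (median 0.28). H1-2, a linker histone, was at 11221 and 11552 in DU145 and at 3445 and 5676 in LNCaP. H2AC6 was at 4408 and 4300 in DU145 and at 933 and 1383 in LNCaP. In LNCaP all 9 histone genes were lower in EOS 2 than in PGK 2, with a median of -0.85 for that comparison, which shares the EOS 2 array. Limma called none of them for ribavirin, and the direct test of LNCaP minus DU145 found 0 of 14313 genes (0%). Without adjustment 335 had a p under 0.05. That test was limma on all 10 arrays with line and number as a block, and it was run gene by gene and not for lists. On simulated data it recovered 0% of log2 differences of 1 and 10% of those of 2. The simulated noise also held the differences between array numbers, which the block takes up in the real data. Recovery in the real data may thus be higher than simulated. With 1 ribavirin array per line, the lack of calls still says little about whether the lines differ.

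**Figure D3:**
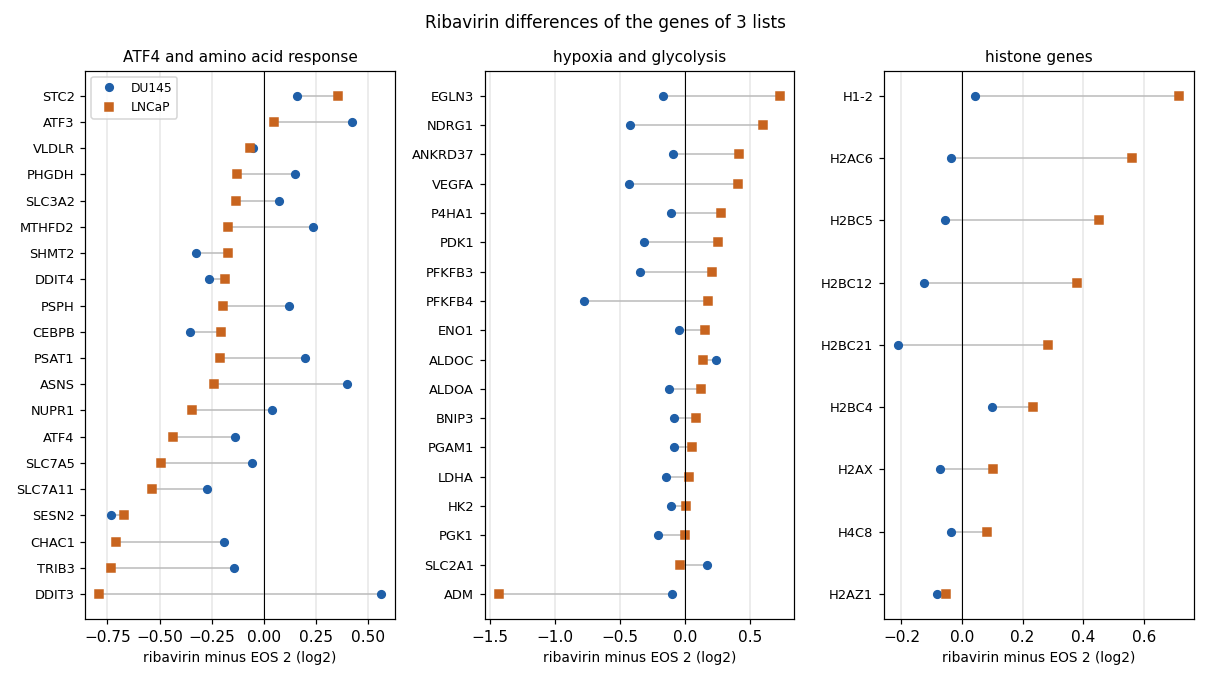
Ribavirin minus EOS 2 differences on the log2(scaled intensity + 16) scale for each gene of 3 lists in DU145 (blue circles) and LNCaP (orange squares), ordered by the LNCaP value. In LNCaP 18 of 20 ATF4-list genes are below 0, 16 of 18 hypoxia-list genes above it and 8 of 9 histone genes above it, while in DU145 10 of 20, 2 of 18 and 2 of 9 are above 0.

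Genes of the p53 response had no common direction, with 12 of 17 above 0 in DU145 and 13 of 17 below 0 in LNCaP (medians 0.06 and -0.11). CDKN1A, the cell cycle inhibitor p21, was at 720.5 and 609 in DU145 and at 1471 and 1710 in LNCaP. MDM2, which degrades p53, was at 1238 and 1554 in DU145 and at 2766 and 2619 in LNCaP. Endoplasmic reticulum chaperones were below 0 for 13 of 16 genes in DU145 (median -0.08) and for 7 of 16 in LNCaP (0.06). XBP1, a transcription factor of the unfolded protein response, was at 1525 and 1363 in DU145 and at 3757 and 2476 in LNCaP. Of 17 interferon-stimulated genes, 7 were above 0 in DU145 and 9 in LNCaP, with medians of -0.06 and 0.03. Limma called no member of any of the 36 lists. None of these differences within a line has a replicate.

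**Figure D4:**
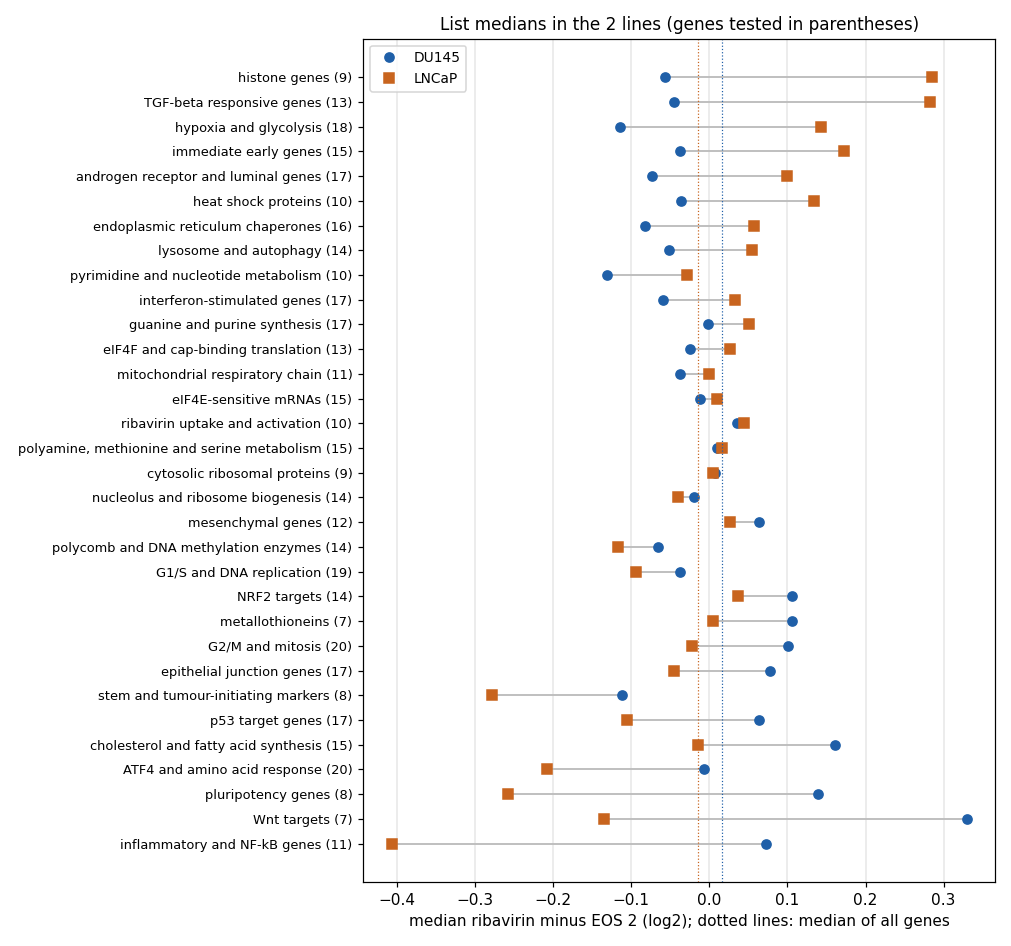
Median ribavirin minus EOS 2 difference on the log2(scaled intensity + 16) scale of each list with 5 or more measured genes, in DU145 (blue circles) and LNCaP (orange squares); the number of genes is in parentheses and dotted lines mark the medians of all genes, 0.02 and -0.01. The lists for purine synthesis, the cap-binding complex and eIF4E-sensitive mRNAs lie near 0 in both lines, and those for Wnt targets, histones and hypoxia lie on opposite sides of 0.

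Pluripotency genes, to which the enhancers of the EOS vector relate, had medians of different sign in the lines. OCT4 and NANOG were not analysed here. SOX2 was dim, at 72.7 and 77.7 in DU145 and at 45.7 and 62.0 in LNCaP, and its other kept probe set, also dim, gave -1.08 and -0.27. KLF4 was at 657 and 748 in DU145 and at 1230.0 and 823 in LNCaP. Its other kept probe set, which was dim, gave -0.18 and -1.84. The 8 measured pluripotency genes had medians of 0.14 in DU145 and -0.26 in LNCaP, and 3 of the 8 were bright. With no filter on low values, 14 were measured and 7 were above 0 in LNCaP (median -0.06). Of 8 stem and tumour-initiating markers, 6 were below 0 in each line, 4 with the same sign. ITGA2, an integrin subunit and one of these, was at 1271 and 943 in DU145 and at 735 and 470.2 in LNCaP (-0.53 ± 0.14, SE, limma adjusted p = 0.855).

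Ribavirin was also set against the difference between EOS 1 and PGK 1, 1 array of each per line, using arrays that the ribavirin pairs do not share. EOS and PGK cells differ in their vector, and what made their difference was not tested. In DU145, 284 genes were higher by at least 1 in EOS 1 than in PGK 1, and their median ribavirin difference was 0.11. The 652 genes lower in EOS 1 had a median of 0.09. In LNCaP the 546 higher genes had a median of -0.11 and the 255 lower genes one of -0.12. Within each line, genes of either direction thus had a median of the same sign with ribavirin. With genes of at least 250 in both pairs, the medians in DU145 were 0.06 over 13 genes and 0.05 over 92, and in LNCaP -0.00 over 46 and -0.17 over 14.

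The 8 highest and 8 lowest differences of DU145 alone ran past 0.95 in size. COX3, a mitochondrially encoded subunit of cytochrome c oxidase, was at 1227 and 2970.0 in DU145 and at 1448 and 1308 in LNCaP. SLC25A16, a mitochondrial carrier gene, was at 645 and 1342 in DU145 and at 746 and 700.4 in LNCaP, but its other probe sets were between -0.30 and 0.02 in DU145. PTGR2, a prostaglandin reductase, was at 262 and 543 in DU145 and at 784 and 792 in LNCaP. SEMA4B, a semaphorin, was at 2238 and 1108 in DU145 and at 429 and 409 in LNCaP. TBX3, a transcriptional repressor, was at 475 and 232 in DU145 and at 11736 and 11713 in LNCaP, a difference of -0.98 in DU145, where its other kept probe sets gave -0.28, 0.06 and 0.21. The other genes of this kind were NGEF, H2AC14, ICAM1, LOC100289333, NEK2-DT and TTLL3 at the low end, and ZNF579, ANKRD2, MAP4K3-DT, RLN2 and GRK5 (0.95) at the high end. For ICAM1, an adhesion molecule at 262 and 102 in DU145, the other probe sets gave 0.15 and -0.14.

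In LNCaP alone, SGK1 stood among the genes with higher values. This kinase, induced by glucocorticoids and androgens, was at 411 in EOS 2 and 1257 with ribavirin, and at 304 to 513 in the other LNCaP arrays, so that the ribavirin array was the highest of 5. In DU145 it was at 292 and 310.3. The LNCaP minus DU145 difference was 1.53 ± 0.55 (SE, limma adjusted p = 1.00). FKBP5, another gene induced by both hormones, was at 15098 and 24140.2 in LNCaP and at 4530 and 4538 in DU145. SNAI2, a transcription factor of epithelial plasticity, was at 419 and 958 in LNCaP and at 88.3 and 128 in DU145. The others at the high end were CEP85, ZNF580, NBL1, DOT1L, SH3PXD2B and MAGEA10. CEP85 went from 48.4 to 385 in LNCaP, but its other probe set gave 0.21. For DOT1L the other kept probe set gave -0.10, and for SH3PXD2B -0.76.

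At the low end in LNCaP stood FGD2, HTR4, IL1RAP, UBBP2, COLEC12, LNCATV, DDC and PNMA3. DDC, the decarboxylase that makes dopamine and serotonin, was at 741 and 347 in LNCaP and at 50.03 and 59.6 in DU145. IL1RAP, a subunit of the interleukin-1 receptor, was at 337 and 126 in LNCaP and at 827 and 608 in DU145. Its ribavirin array was the lowest of 5 in both lines, but its other kept probe set gave 0.52 in LNCaP. Of the androgen receptor and luminal genes, 12 of 17 were above 0 in LNCaP with a median of 0.10, and KLK3 and KLK2 differed there by 0.01 and 0.10. Only 6 of the 17 had an intensity of at least 250 in both pairs.

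Besides DDIT3, 7 brighter genes were named for opposite directions. BAD, a pro-apoptotic member of the BCL2 family, was at 1119 and 704 in DU145 and at 719 and 1197 in LNCaP, but its other bright probe set gave -0.09 and -0.28. PSKH1, a serine kinase gene, was at 348 and 193 in DU145 and at 176 and 333 in LNCaP. CACNG4, a calcium channel subunit gene, was at 424 and 686 in DU145 and at 377 and 168 in LNCaP. The rest were UBE2NL, NATD1, XAGE-4 and INSL3, all higher in DU145 and lower in LNCaP with ribavirin. The test of the difference between lines, which recovered few simulated differences, called no gene. None of the genes named for 1 line or for opposite directions is thus shown to respond differently, or alike, in them. With 2 pairs, an exact permutation test of any single gene cannot go below p = 0.5.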

How the data were processed

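RNA was measured on Affymetrix arrays of 54675 probe sets. The authors' deposited values were linear intensities; MAS5 and affy are listed, without roles, in the submitters' processing notes. Deposited trimmed means were 96.6 to 126.5 in arrays numbered 2 and 500 in those numbered 1, so each array was scaled to a 2% trimmed mean of 500 and taken as log2(intensity + 16). A probe set was kept if it exceeded the array median in 2 or more of 10 arrays. Of the 54675, 41097 had 1 gene, 1801 several and 11777 none. The brightest kept probe set stood for each of 14313 genes, named from the platform annotation.

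Within a line, 1 array was set against 1 with a fixed fold and no test. Over both lines, limma 3.58.1 (R 4.3.3) was fitted to the 4 arrays with line as a block and an intensity trend. This leaves 1 residual degree of freedom, beside 9.74 prior degrees of freedom borrowed from genes of like intensity. The spread is how far the lines differ, mostly over those other genes and less for the gene itself. Adjustment was by Benjamini-Hochberg over all genes at 0.05. On simulated data this fit made more false calls than that threshold allows. LNCaP minus DU145 was fitted to 10 arrays with line and number as a block. The labels name no pairing of PGK with EOS arrays by number. Deviations of PGK and EOS arrays from their group means correlated at r = 0.123 in DU145 and 0.484 in LNCaP. Whether the arrays of a number were pairs was not tested.

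Named genes were the 12 highest and 12 lowest of one direction in both lines (by the smaller difference), the 8 highest and 8 lowest of each line alone and 8 of opposite direction, all of at least 250 in intensity, limma calls, a set list of drug-related genes and up to 4 members per list. Any other gene was picked with its values in view. The comparison, the 36 lists and the members were chosen with earlier results of these data known. Scaling, pseudocount, filter, probe set choice, fold, arrays and block were varied. The number of arrays limits the precision.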

Additional observations from a re-analysis of the deposited data

Results flagged for a closer look

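In 4 lists at least 75% of the measured genes were on one side of 0 in DU145 and at least 75% on the other side in LNCaP, a limit set after the values had been seen. The difference between the lines was not tested for any of them. The median ribavirin minus EOS 2 difference of 18 genes of hypoxia and glycolysis was -0.11 in DU145 and 0.14 in LNCaP. That of 9 histone genes was -0.057 and 0.28. The 7 Wnt targets had medians of 0.33 and -0.135, and 2 of the 7, AXIN2 and ZNRF3, had an intensity of at least 250 in both pairs. NOTUM was an exception, higher in both lines. The 8 pluripotency genes had medians of 0.14 and -0.26, and 5 of them were dim in at least 1 pair. With no filter on low values, 7 of 14 were above 0 in LNCaP, with a median of -0.06.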

How the results depend on the processing

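Counts past the fold followed the treatment of dim genes. In the order DU145, LNCaP, same way in both lines and opposite ways, the 760, 908, 75 and 84 genes became 1251, 1437, 191 and 206 with a pseudocount of 1. In the same order followed by DU145 alone and LNCaP alone (420 and 527), they became 135, 160, 6, 3, 94 and 117 with a pseudocount of 64, and 1945, 2018, 220, 230, 999 and 1065 with no filter. They were 30, 53, 0, 0, 23 and 41 for genes above the array median in all 4 arrays. With a fold of 2 on the log2 scale they were 79, 96, 3, 3, 37 and 46, and with 0.5 they were 2465, 2501, 445, 470, 1550 and 1586. Among genes of at least 250, an alternative chosen after seeing the data, they were 10, 13, 0, 0, 10 and 9.

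The 1 limma call over both lines, TAF15, became 0 calls with quantile normalization, no filter, the mean of probe sets, no trend, 6 arrays, and 10 arrays with the replicate block or without it (TAF15 at -0.92 and -1.21). Scaling to the array median gave 13 calls, TAF15, SELENOP and SGK1 among them. The cause was not tested. The interaction had 0 or 1 calls with 1 array left out. The call was PLOD2, without LNCaP EOS 2. Without the replicate block, KRT8, ACTBP9 and ND6 turned to -0.27, -0.19 and -0.19. With the mean of probe sets, METTL6 and GRK2 turned to -0.21 and -0.15. The block turned no other named gene.

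Medians of genes that differed between EOS 1 and PGK 1 were small and moved. Median scaling moved all genes in LNCaP to 0.18, so values under it are to be read against that. In LNCaP, higher genes were at -0.16 and -0.056 with pseudocounts of 1 and 64, 0.0018 and 0.0175 with quantile and median scaling, -0.21 and -0.053 with folds of 2 and 0.5, and -0.0004 among genes of at least 250. Lower genes in LNCaP were at -0.20 with a pseudocount of 64, -0.0084 and 0.043 with quantile and median scaling, and 0.13 with a fold of 2. In DU145, higher genes were at 0.0104 above the median in all 4 arrays, and at -0.011 and 0.0049 with folds of 2 and 0.5, and lower genes at 0.15 with a pseudocount of 1. In LNCaP, Wnt targets had a median of 0.00 with quantile normalization. With median scaling, Wnt targets were at 0.06, p53 targets at 0.09, polycomb enzymes at 0.08 and replication genes at 0.11, all still below all genes.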

Other observations

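The mitochondrially encoded genes, grouped after COX3 and ND6 had been seen, were above 0 in DU145 for all 7 measured, with a median of 0.46 and a range from 0.05 to 1.26. In LNCaP 3 of the 7 were above 0, with a median of -0.01. COX1 was at 8484 in DU145 EOS 2 and 11705 with ribavirin, and ATP6 at 15598 and 22091. In LNCaP COX1 was at 4790 and 4764, and ATP6 at 11152 and 11678. COX2 differed by 0.32 in DU145 and 0.07 in LNCaP. Of the 11 measured genes on the list for the mitochondrial respiratory chain, 7 were below 0 in DU145, with a median of -0.04.

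Cytosolic tRNA synthetases, several of them targets of ATF4 and also grouped after the values had been seen, were below 0 for 12 of 17 genes in LNCaP (median -0.08) and for 6 of 17 in DU145 (median 0.03). VARS1, for valine, was at 1159 and 924 in DU145 and at 2015 and 1444 in LNCaP. GARS1, for glycine, differed by -0.09 and -0.29. EWSR1, an RNA-binding protein related to TAF15, was at 4264 and 4451 in DU145 and at 4680.3 and 5089 in LNCaP. PLIN2, a coat protein of lipid droplets, was at 2455 and 1452 in DU145 and at 79.6 and 7.11 in LNCaP.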
